A study of Gallus gallus with 9 samples.

Results

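The 8 genes DDX4, DAZL, DND1, CPEB1, PIWIL1, TDRD9, MAEL and TDRKH encode RNA-binding proteins of germ cells and proteins of the piRNA pathway, and they were followed through bFGF withdrawal and replacement in cultured chicken primordial germ cells (PGCs). They were taken by name, with every probe set whose single annotated symbol is 1 of the 8. This gave 14 probe sets, of 38439 on the array that are not controls, and the 8 genes are among 13009 with a single-symbol probe set. Of the 14 probe sets, 12 were bright enough to be tested, at least 1 for each gene. Probe sets of a gene are numbered from the brightest.

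The PGCs came from dorsal aorta blood of Korean Oge embryos (embryonic day 2.5, stage 14 to 15) and were grown in suspension without feeder cells, in medium with fetal bovine and chicken serum. RAW cells (0 h) had human bFGF at 10 ng/ml, -bFGF cells had been without it for 24 h, and +bFGF cells (48 h) had it back at 10 ng/ml for the last 24 h. RNA of each group was hybridised to 3 Affymetrix Chicken Genome arrays, 9 in all. The methods describe the experiments as repeated, but neither they nor the labels say whether each array stood for a culture of its own, so the p-values cover only differences among these 9 arrays, which may be technical. Each step also adds 24 h of culture, and no culture kept in bFGF throughout was analysed here. In RNA from whole cultures, fewer cells of a type and less RNA per cell cannot be told apart.

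The gene products meet in the cytoplasm of germ cells. DDX4, the chicken vasa homologue (CVH), is an RNA helicase of germ granules and a classical germ cell marker. DAZL, DND1 and CPEB1 bind the 3' ends of messenger RNAs and set how strongly these are translated or how long they last. PIWIL1 is a PIWI protein that carries piRNAs, small RNAs that guide the silencing of transposons. In mouse, TDRD9, MAEL and TDRKH also act in the piRNA pathway. TDRD9 is a tudor domain helicase, and MAEL is a germ granule protein needed for transposon silencing. TDRKH holds PIWI proteins at mitochondria during piRNA maturation.

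The study followed DDX4 and DAZL by PCR, and its text and supplementary tables give no array result for either gene. By quantitative RT-PCR it reported both genes as downregulated after 24 h without bFGF, along with NANOG and POUV. It reported antibody staining of PGC markers as unaffected and migration as not significantly affected. Its quantitative RT-PCR primers are shown because they name the stretch of each transcript that this PCR reads. They are given 5′ to 3′ in the order listed by the study, which does not mark the strand.
DDX4 (CVH), first primer: tgacttatgtcccccctcct
DDX4 (CVH), second primer: gtaatggtgctggagggtca
DAZL, first primer: tcccagagcccacacagatg
DAZL, second primer: aagtgatgcgccctcctctc

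Values are MAS5 intensities on a linear scale, and changes are differences of group mean log2 intensities from limma over all 9 arrays. A change was called when its adjusted p was under 0.05 among 19220 tested probe sets. Array medians lay between 71.6 and 82.6, and probe sets for sequences that are not chicken reached 32.0 to 40.5 at their 95th percentile. The label was checked against 24 PGC markers, of which 17 had a single-symbol probe set. Of these, 14 were bright enough to test. KIT and EPCAM, which are not members, were far above background in every group, as were DDX4 and DAZL, while SOX2 and ALPL were too dim to test and KLF4 was under background in all groups. NANOG and POUV had no single-symbol probe set in the annotation used here. Of 10 erythroid markers with a probe set, only HBE was bright enough to test, and HBA1, HBAD and HBBR were under background in all groups. Of 12 leukocyte markers with a probe set 4 were tested, of 4 thrombocyte markers 1 and of 12 endothelial markers 3. CYBB (leukocyte) and EGFL7 (endothelial) were called on withdrawal, at log2 changes of 0.37 and -1.12. The summed leukocyte intensity was 1056 to 1124 in RAW and 1127 to 1171 in -bFGF cells. For thrombocyte markers it was 207 to 240 and 116 to 192. Among these, GP9 and F13A1 were under background in all groups. ITGB3, the thrombocyte marker tested, was not called on withdrawal (adjusted p = 0.694 in limma). The erythroid and endothelial sums of these groups overlapped. The part of such cells was not tested.

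When bFGF was withdrawn, 1 of the 12 tested probe sets fell (DAZL) and 1 rose (CPEB1 probe set 1). Over all tested probe sets 5.33% fell and 5.4% rose, so the members' count is close to the background. When bFGF was replaced, 1 of the 12 fell (CPEB1 probe set 1), against 3.42% of all, and 0 rose, against 3.37% of all. Between +bFGF and RAW cells 0 of the 12 were called in limma, against 2.89% of all in either direction. At an unadjusted p under 0.05 in limma were 4 of the 12 on withdrawal and 1 on replacement, against 4826 and 3944 of all 19220. No member was past that level between +bFGF and RAW cells, against 17.8% of all, or higher at that level on replacement, against 8.77%. The criteria of the methods were applied here to the deposited MAS5 intensities, where the study used dChip on probe-level data. They called 0 members for the net change, against 1.3% of all probe sets in either direction. On replacement they called 0 members risen, against 1.26% of all. The members' median absolute log2 change was 0.07 on withdrawal, against 0.14 over all tested probe sets, 0.11 on replacement, against 0.13, and 0.10 for the net change, against 0.12. The 12 are bright, with a lowest group mean of 456 (TDRKH probe set 1, -bFGF), against medians of 71.6 to 82.6 over whole arrays. The part of brightness in these medians of change was not tested.

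**Figure D1:**
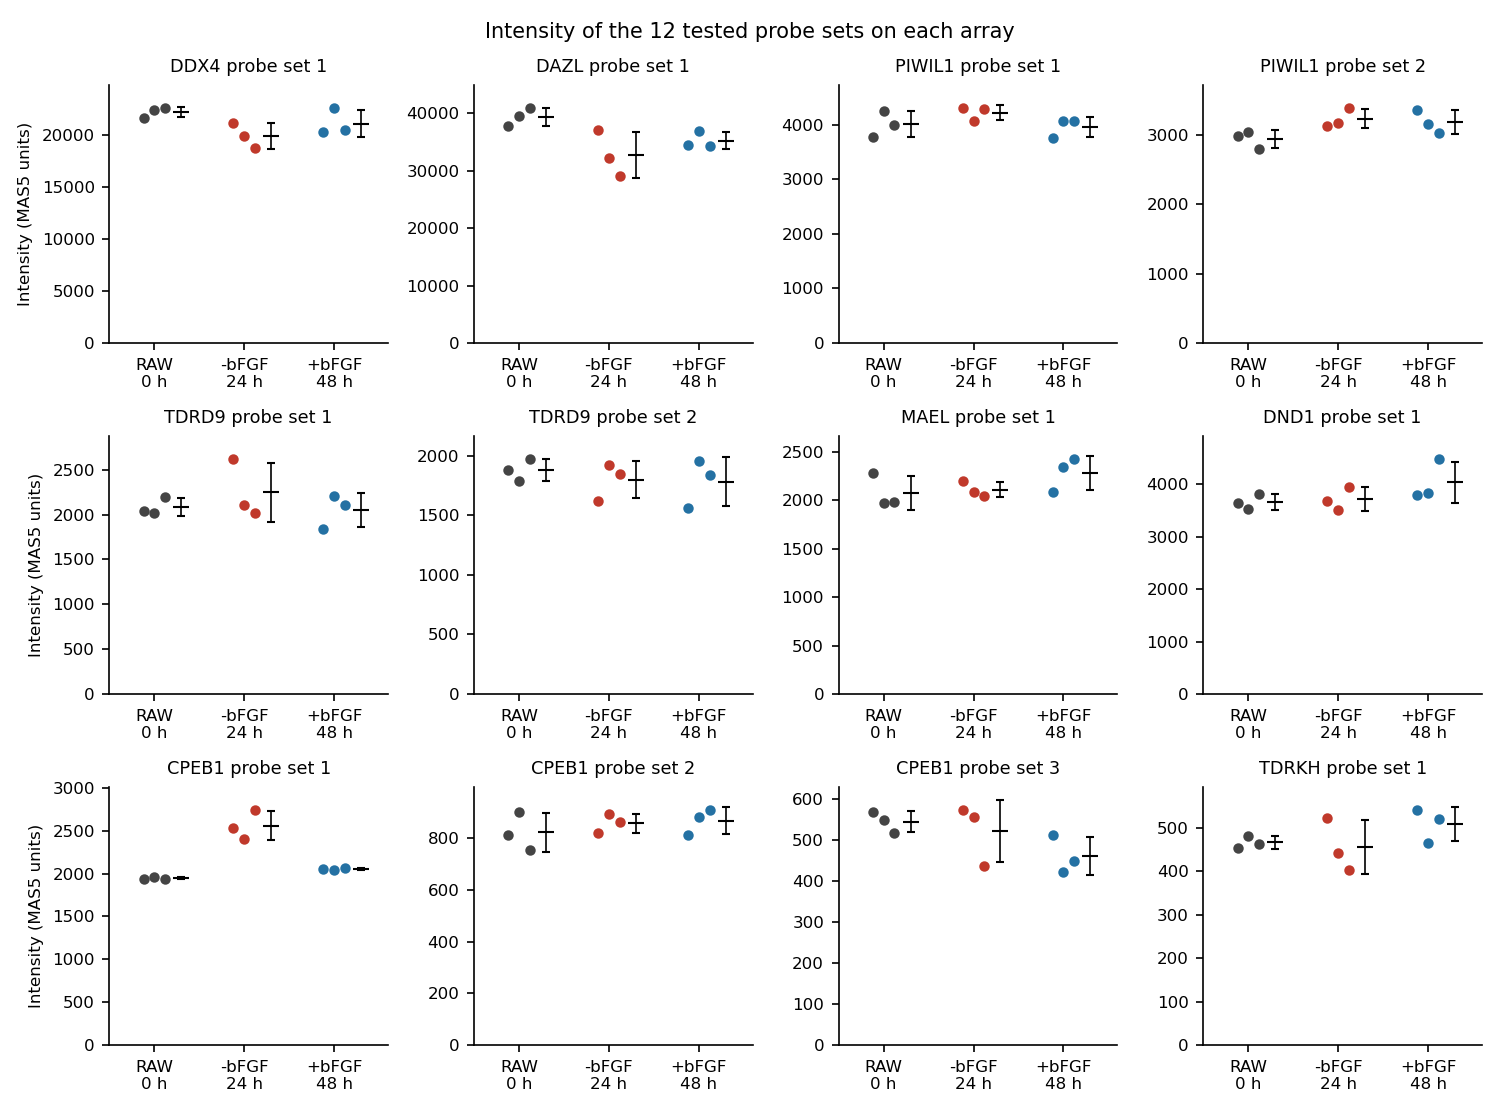
Intensity in MAS5 units on linear axes from 0, for the 12 tested probe sets, in RAW (0 h), -bFGF (24 h) and +bFGF (48 h) cells. Each point is 1 array, and the black bar beside it is the mean ± SD of 3 arrays. CPEB1 probe set 1 is higher in all 3 -bFGF arrays than in the other 6 arrays, and DAZL is lower in all 3 -bFGF arrays than in RAW.

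DAZL, which promotes translation of germ cell messages, fell on bFGF withdrawal. Its probe set read 37097, 32239 and 29081 on the -bFGF arrays, against 37733, 39497 and 40943 on the RAW arrays. The 2 groups had no overlap, but -bFGF replicate 1 lies close to the lowest RAW array. The mean was 32806 ± 4038 in -bFGF cells and 39391 ± 1608 in RAW cells (SD, n = 3 each), a log2 change of -0.27 ± 0.07 (SE; 95% interval -0.43 to -0.11, adjusted p = 0.0342 in limma). The fold was 0.829, with an interval of 0.742 to 0.927.

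Some other PGC markers were also lower in -bFGF cells, and some were higher. Of the 12 tested markers that are not members, 4 fell on withdrawal (ITGB1, SALL4, CXCR4 and LIN28A) and 1 rose (CDH1). Of 9125 genes, each on its brightest probe set, 5.99% fell and 6.83% rose. The marker counts only describe and test no excess. LIN28A is counted again below among the germline RNA control genes, on the same probe set. The median log2 change of the 12 markers was -0.07. KIT, TFAP2C, EPCAM and TERT had positive changes that were not called, at 0.12, 0.11, 0.004 and 0.34. The summed intensity of the 17 markers was 108836 to 120745 in -bFGF cells, against 125412 to 132752 in RAW cells. Without DDX4 and DAZL it was 60920 to 62521 in -bFGF cells, against 65422 to 69256 in RAW cells. Neither pair of ranges overlaps, and the part of this in the DAZL change was not tested.

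The DAZL call depended on single arrays. Omitting any 1 of the 3 RAW arrays, or replicate 2 or 3 of the -bFGF group, ended it, with adjusted p between 0.0560 and 0.122. Without -bFGF replicate 1 the log2 change was -0.36 (adjusted p = 0.00289). It was also lost with no filter on dim probe sets (adjusted p = 0.0971), without the intensity trend (adjusted p = 0.126), in a test against a 1.2-fold change and by the criteria of the methods, which ask that the 90% bound of the fold exceed 1.2 and the means differ by over 50. The DAZL probe set is among 62 with a mean intensity of at least 30000, where 47 were lower in -bFGF cells, the median log2 change was -0.04 and 6 changed further down than DAZL. The maxima of the arrays were 50568 to 56199 in -bFGF cells and 54130 to 58657 in RAW cells. With quantile normalization, which gives all arrays 1 distribution, the DAZL change was -0.18 (adjusted p = 0.0254). The part of this brightness range in the result was not tested.

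After replacement DAZL read 34529, 36988 and 34302 on the +bFGF arrays, between the means of the other 2 groups. Compared with -bFGF cells the log2 change was 0.11 ± 0.07 (SE; interval -0.05 to 0.27, adjusted p = 0.443). Compared with RAW cells it was -0.16 (interval -0.32 to 0.00139, adjusted p = 0.284). All 3 +bFGF arrays were below the lowest RAW array, while they overlapped the -bFGF arrays. Neither difference passed the test.

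DDX4, the germ granule helicase, gave 21127, 19820 and 18691 on the -bFGF arrays, against 21592, 22339 and 22552 on the RAW arrays. As for DAZL, every -bFGF array was below every RAW array. The log2 change was -0.16 ± 0.06 (SE; interval -0.28 to -0.03), which did not pass the test (adjusted p = 0.103). DDX4 is among 155 probe sets with a mean intensity of at least 20000. Of these, 117 were lower in -bFGF cells and 20 changed further down than DDX4. With quantile normalization the DDX4 change was -0.10 (adjusted p = 0.112 in limma). The part of this brightness range was not tested. On the +bFGF arrays DDX4 read 20234, 22509 and 20426. These overlap both other groups, with a log2 change of 0.08 against -bFGF cells (adjusted p = 0.465) and of -0.08 against RAW cells (adjusted p = 0.541). Among the -bFGF arrays replicate 1 was highest and replicate 3 lowest for both DDX4 and DAZL, and among the +bFGF arrays replicate 2 was highest for both.

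DND1, which binds the 3' untranslated regions of germ cell messages and is needed for PGC survival in zebrafish and mouse, was not called. It read 3685, 3519 and 3957 in -bFGF cells, against 3637, 3527 and 3817 in RAW cells, with a log2 change of 0.02 (interval -0.13 to 0.18, adjusted p = 0.879). In +bFGF cells it read 3793, 3839 and 4483, a log2 change of 0.12 against -bFGF cells (interval -0.04 to 0.27, adjusted p = 0.397). Only +bFGF replicate 3 was above all -bFGF and RAW arrays.

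CPEB1, which binds the cytoplasmic polyadenylation element and controls poly(A) tail length in maturing oocytes of frog and mouse, had the largest change of the 8 genes on its brightest probe set. CPEB1 probe set 1 read 2533, 2405 and 2741 in -bFGF cells, against 1935, 1956 and 1938 in RAW cells. It rose by 0.40 ± 0.06 on the log2 scale (SE; interval 0.27 to 0.52, adjusted p = 0.00084), a 1.32-fold increase with an interval of 1.203 to 1.44. The criteria of the methods also called this rise, as they did for 1.56% of all probe sets. On replacement it read 2052, 2036 and 2062 in +bFGF cells, all below the lowest -bFGF array. The log2 change against -bFGF cells was -0.32 ± 0.06 (SE; interval -0.45 to -0.19, adjusted p = 0.00497). The fold was 0.802, with an interval of 0.733 to 0.877, and the criteria of the methods did not call this fall.

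The return was close to the starting level. CPEB1 probe set 1 differed between +bFGF and RAW cells by 0.08 on the log2 scale (interval -0.05 to 0.21, adjusted p = 0.541), although its 3 +bFGF arrays were all above its 3 RAW arrays. Both calls held when each of the 9 arrays was left out in turn, with a log2 change of 0.34 to 0.44 on withdrawal and of -0.36 to -0.27 on replacement. The calls are not independent, because both comparisons share the -bFGF arrays. The coefficient of variation of this probe set was 0.592% in RAW cells, 6.64% in -bFGF cells and 0.626% in +bFGF cells, and the median coefficient over the groups of all 12 tested probe sets was 5.90%.

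The other probe sets of CPEB1 did not share this pattern. CPEB1 probe set 2 read 813, 900 and 752 in RAW cells (0 h), 818, 893 and 860 in -bFGF cells (24 h), and 810, 883 and 908 in +bFGF cells (48 h). Its log2 change was 0.06 on withdrawal (adjusted p = 0.687) and 0.02 on replacement (adjusted p = 0.942), and the 3 groups overlap. CPEB1 probe set 3, whose name marks probes shared by more than 1 transcript, read 568, 549 and 517 in RAW cells (0 h), 573, 557 and 435 in -bFGF cells (24 h), and 511, 421 and 448 in +bFGF cells (48 h). It changed by -0.07 on withdrawal (adjusted p = 0.75) and by -0.18 on replacement (adjusted p = 0.435), and its +bFGF arrays were all below its RAW arrays (adjusted p = 0.285).

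The disagreement was compared array by array. The log2 change on withdrawal was 0.33 greater for probe set 1 than for probe set 2 and 0.47 greater than for probe set 3, and in neither difference did the -bFGF arrays overlap the RAW arrays. On replacement the difference from probe set 2 was -0.33, again without overlap, and that from probe set 3 was -0.14, with overlap. The two-sided exact permutation p was 0.1 for the first 3 of these, the smallest that 20 splits allow, and 0.3 after Benjamini-Hochberg adjustment over 15 such differences. When the 3 probe sets were averaged, CPEB1 changed by 0.13 on withdrawal (adjusted p = 0.166) and by -0.16 on replacement (adjusted p = 0.116). Both CPEB1 calls were thus made on 1 probe set of 3.

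**Figure D2:**
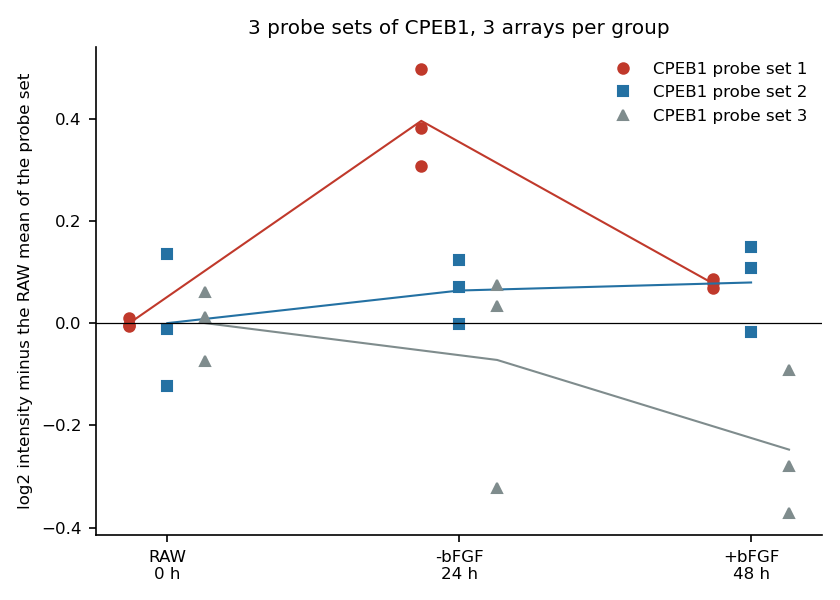
The log2 intensity of the 3 CPEB1 probe sets minus each probe set's RAW mean, at 0 h (RAW), 24 h (-bFGF) and 48 h (+bFGF). Each symbol is 1 array and the lines join group means. Probe set 1 is raised by 0.40 in -bFGF cells, while probe sets 2 and 3 differ from their RAW means by 0.06 and -0.07.

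Control ratios that reflect the state of the RNA also differed between the groups. The log2 ratio of 3' to 5' GAPDH control probe sets was -0.07 to -0.05 in RAW cells (0 h), -0.18 to -0.14 in -bFGF cells and -0.16 to -0.08 in +bFGF cells. For actin it was 0.62 to 0.73 in RAW cells, 0.70 to 0.78 in -bFGF cells and 0.33 to 0.59 in +bFGF cells. On withdrawal the mean ratio went down for GAPDH and up for actin, and the actin ranges of RAW and -bFGF cells overlap. The part of RNA state in the DAZL and CPEB1 changes was not tested. The summed intensity of 19 fibroblast and mesenchyme markers was 14305 to 15410 in RAW cells (0 h), 11504 to 11791 in -bFGF cells and 12835 to 14241 in +bFGF cells. Of these, 8 were under background in all groups, among them TWIST1, LUM and DCN. On their brightest probe sets COL1A1, COL1A2, FN1 and PRRX1 fell on withdrawal, while VIM and COL3A1, the brightest, were not called then. No other probe set of FN1 or PRRX1 was called on withdrawal. On replacement COL1A2 and VIM rose, VIM by 0.17 on the log2 scale (adjusted p = 0.0481). COL1A2 alone averaged 263 in -bFGF cells, against 2385 in RAW cells, and without it the sum of the other 18 was 11243 to 11540 in -bFGF cells, against 11969 to 12783 in RAW cells. The sum of 8 gonadal somatic markers was 11150 to 11692 in -bFGF cells, against 9316 to 10245 in RAW cells, where DMRT1, which germ cells also express, was the 1 that rose. Its brightest probe set averaged 9413 in -bFGF and 7909 in RAW cells, and no other of its 7 was called on withdrawal. The part of such cells in the results was not tested.

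PIWIL1, the PIWI protein, was measured by a pair of probe sets, of which probe set 1 is named as holding probes shared by more than 1 transcript. PIWIL1 probe set 1 read 3776, 4249 and 3988 in RAW cells (0 h), 4304, 4070 and 4288 in -bFGF cells (24 h), and 3753, 4057 and 4073 in +bFGF cells (48 h). The groups overlap, and the log2 change was 0.08 on withdrawal (adjusted p = 0.458) and -0.09 on replacement (adjusted p = 0.425). PIWIL1 probe set 2 read 3127, 3167 and 3381 in -bFGF cells, against 2978, 3030 and 2794 in RAW cells. Here the groups do not overlap, with a log2 change of 0.14 (interval 0.01 to 0.27), which missed the test (adjusted p = 0.181). It stayed at 3359, 3146 and 3017 in +bFGF cells, a log2 change of -0.02 (adjusted p = 0.874). Averaged over both probe sets, PIWIL1 changed by 0.11 on withdrawal (adjusted p = 0.163).

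TDRD9, the tudor domain helicase, had a pair of probe sets that moved apart on 1 array, and the name of probe set 1 again marks shared probes. TDRD9 probe set 1 read 2620, 2103 and 2018 in -bFGF cells, against 2039, 2015 and 2199 in RAW cells. TDRD9 probe set 2 read 1622, 1923 and 1849 in -bFGF cells, against 1877, 1784 and 1971 in RAW cells. The -bFGF replicate 1 was thus the highest of the 9 arrays for probe set 1, and below every RAW array for probe set 2. The log2 changes on withdrawal were 0.10 (interval -0.11 to 0.31, adjusted p = 0.561) and -0.06 (interval -0.26 to 0.13, adjusted p = 0.699). In +bFGF cells probe set 1 read 1843, 2211 and 2110 and probe set 2 read 1558, 1954 and 1834, with log2 changes against -bFGF cells of -0.12 (adjusted p = 0.516) and -0.02 (adjusted p = 0.947).

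MAEL, the germ granule protein, read 2197, 2086 and 2043 in -bFGF cells, against 2280, 1973 and 1979 in RAW cells. The log2 change was 0.02 (interval -0.14 to 0.19, adjusted p = 0.877), with overlapping arrays. In +bFGF cells MAEL read 2084, 2339 and 2424, a log2 change of 0.11 (adjusted p = 0.445).

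TDRKH, the mitochondrial PIWI partner, read on its probe set 1 453, 482 and 463 in RAW cells (0 h), 523, 443 and 402 in -bFGF cells (24 h), and 541, 466 and 521 in +bFGF cells (48 h). The -bFGF arrays spanned the RAW arrays, with a log2 change of -0.04 on withdrawal (interval -0.27 to 0.19, adjusted p = 0.859) and 0.16 on replacement (interval -0.07 to 0.40, adjusted p = 0.433). TDRKH probe sets 2 and 3 were too dim to be tested. Probe set 3 had means under the highest background level in all 3 groups, and probe set 2 lay between 14.1 and 87.5 over the 9 arrays, around background.

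For the 10 member probe sets that were not called on withdrawal, from 7 genes, the 95% intervals of the fold lay within 0.80 and 1.24. For the 11 not called on replacement they lay within 0.745 and 1.32, and for the net change of all 12 within 0.709 and 1.28. Larger changes on these probe sets are outside the intervals, which are not adjusted for the number of probe sets. The intervals hold for a probe set, not for its gene. CPEB1 probe set 1 rose on withdrawal, while CPEB1 probe sets 2 and 3 were not called. On withdrawal the log2 intervals of DDX4 (-0.28 to -0.03) and PIWIL1 probe set 2 (0.01 to 0.27) excluded 0 without a call. All the other uncalled intervals included 0. Groups without overlap were 2 lower (DAZL, DDX4) and 2 higher (CPEB1 probe set 1, PIWIL1 probe set 2) of 12 on withdrawal, where 14.2% of all tested probe sets were lower and 17.3% higher in this way. On replacement 1 was lower (CPEB1 probe set 1), against 14.7% of all, and 0 were higher, against 10.7%. For the net change 2 were lower (DAZL, CPEB1 probe set 3), against 11.8%, and 1 was higher (CPEB1 probe set 1), against 10.3%.

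**Figure D3:**
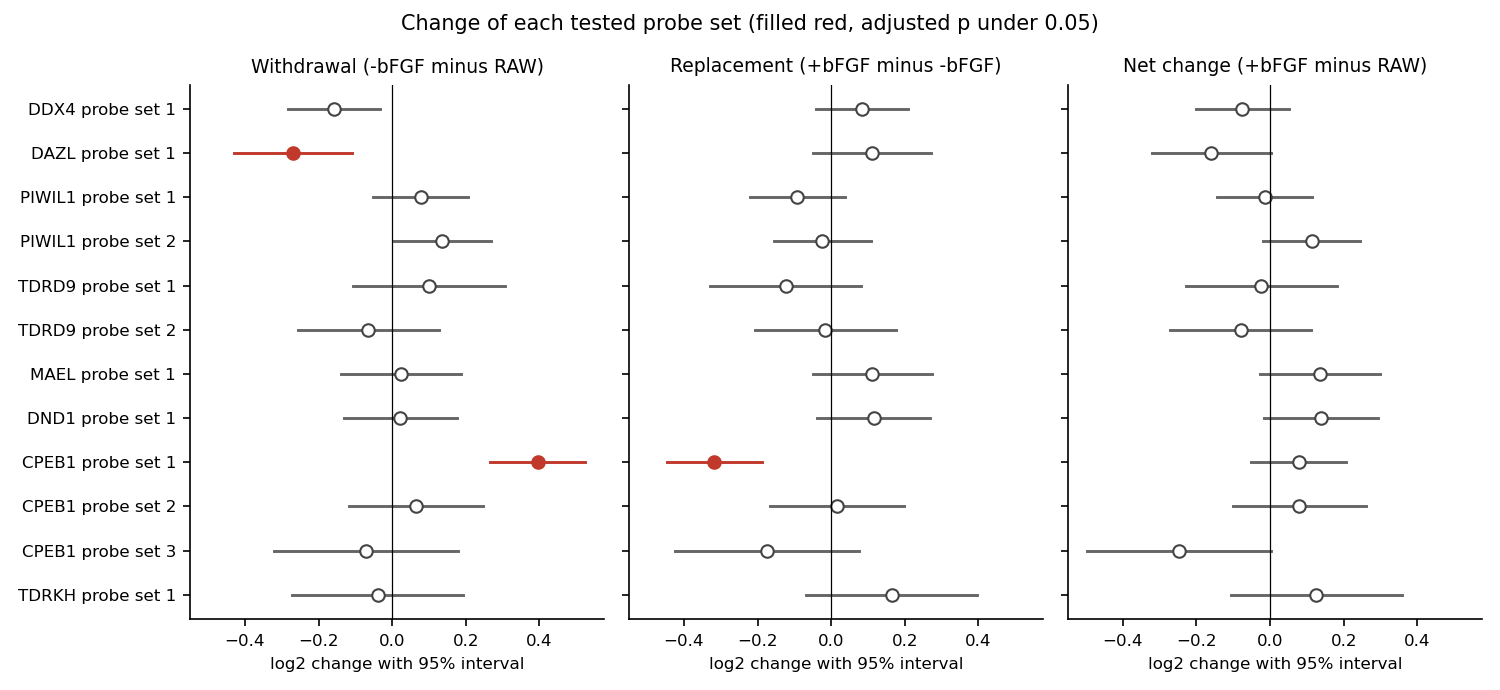
Log2 change of each tested probe set with its 95% interval on withdrawal (-bFGF minus RAW), replacement (+bFGF minus -bFGF) and for the net change (+bFGF minus RAW). Filled red points passed an adjusted p of 0.05, which were DAZL at -0.27 and CPEB1 probe set 1 at 0.40 on withdrawal, and CPEB1 probe set 1 at -0.32 on replacement.

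The other genes of the piRNA pathway were read from a list of 33, on 1 probe set per gene, the brightest. Of these, 21 had a single-symbol probe set and 20 were tested, and PIWIL2, PIWIL4, PLD6 and TDRD12 had none in the annotation used here. On withdrawal 4 of 20 rose and 0 fell, where over 9125 genes 6.83% rose and 5.99% fell. The list was chosen with earlier results of these data known, so its counts only describe and test no excess. At an unadjusted p under 0.05 in limma, 5 were higher and 1 lower, against 4826 of all 19220 tested probe sets in either direction. The criteria of the methods called 0 in either direction, against 668 of the 19220 fallen and 582 risen. The list's median log2 change was 0.03, as it was over all genes.

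ASZ1, a mitochondrial germ granule protein of the mouse piRNA pathway, rose by 0.37 on the log2 scale, to 1472 ± 97.0 in -bFGF cells, against 1140 ± 76.5 in RAW cells (SD, n = 3 each, adjusted p = 0.00961). MYBL1, the transcription factor that switches on piRNA precursor genes in mouse testis, rose by 0.35 (adjusted p = 0.0258). RNF17, a tudor and RING finger protein, rose by 0.31 (adjusted p = 0.00987). TDRD7, a tudor protein of germ granules, rose by 0.23 (adjusted p = 0.0168). RNF17 kept its call whichever array was left out. ASZ1 lost it without -bFGF replicate 2 (adjusted p = 0.0533). TDRD7 and MYBL1 lost it without replicate 2 or 3 of either group, with adjusted p up to 0.0708 and 0.103. Of the 3 probe sets of RNF17 1 other rose, as did 1 other of the 6 of MYBL1, while ASZ1 and TDRD7 had 1 each.

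On replacement 1 of the 20 fell and 1 rose, where 4.21% of all genes fell and 4.02% rose. MYBL1 fell by 0.43 on the log2 scale, to 628 ± 38.1 in +bFGF cells, against 843 ± 60.0 in -bFGF cells (adjusted p = 0.0104, and 0.0588 without -bFGF replicate 3). TDRD1, a tudor protein that binds PIWI proteins, rose by 0.21 (adjusted p = 0.0443). That call was lost whichever of the 9 arrays was left out (adjusted p = 0.0510 to 0.190). Other tested probe sets did not share these replacement calls, 0 of 4 for MYBL1 and 0 of 2 for TDRD1. ASZ1 changed by -0.03 on replacement (adjusted p = 0.892) and stayed above RAW cells, with a mean of 1446 in +bFGF cells (adjusted p = 0.0364 for the net change, where 1.62% of all genes rose). The remaining tested genes, among them GTSF1, FKBP6, MOV10L1 and HENMT1, were not called in any of the 3 comparisons.

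Other regulators of germ cell RNA were read from a list of 80, of which 60 had a probe set and 58 were tested. On withdrawal 9 fell and 3 rose, beside the 5.99% and 6.83% of all genes given above, and the list's median log2 change was -0.06. This list was chosen with earlier results of these data known, so its counts only describe and test no excess. LIN28A, which blocks maturation of let-7 microRNAs, fell by 0.98 on the log2 scale, to 771 ± 74.0 in -bFGF cells, against 1524 ± 171 in RAW cells (adjusted p = 0.000382). CELF2, a splicing and stability factor, fell by 0.99 at a low intensity, with 62.0 ± 8.07 in -bFGF cells and 124 ± 24.5 in RAW cells (adjusted p = 0.0160). Its -bFGF mean lies under every array median, so it passed the filter on dim probe sets through the other groups. MSI1, the Musashi translation regulator, fell by 0.74 (adjusted p = 2.51e-05).

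SAMD4A, the Smaug homologue, fell by 0.44 (adjusted p = 0.0335), and DDX6, a helicase of RNA decay granules, by 0.43 (adjusted p = 0.0397). PUM2, DAZL's partner in human germ cells, fell by 0.40 (adjusted p = 0.00470), and BICC1, IGF2BP3 and YBX1 also fell. RBM38 rose by 0.48 (adjusted p = 0.00180), ZAR1L by 0.42 (adjusted p = 0.0421) and ELAVL2 by 0.20 (adjusted p = 0.0182). Of these 12 calls, 5 held with each array left out, those of LIN28A, MSI1, PUM2, YBX1 and RBM38. Each of the other 7 was lost without RAW replicate 1 and without at least 1 of the -bFGF arrays, and that of DDX6 also without +bFGF replicate 2, with adjusted p up to 0.149 (ZAR1L). With no filter on dim probe sets IGF2BP3, SAMD4A, DDX6 and ZAR1L lost theirs (adjusted p = 0.0570 to 0.0760). Other tested probe sets did not fall in SAMD4A (0 of 4), MSI1 (0 of 2), DDX6 (0 of 1) and YBX1 (0 of 1).

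On replacement 2 of the 58 rose and 2 fell, a share near or below the 4.02% and 4.21% of all genes. LIN28A rose by 0.80, to 1363 ± 319 in +bFGF cells (adjusted p = 0.00229), and CELF2 by 0.98, to 124 ± 28.5 (adjusted p = 0.0217). RBM38 fell by 0.66, to 1269 ± 94.7 (adjusted p = 0.000159), and ELAVL2 by 0.26, to 9791 ± 369 (adjusted p = 0.00477). These 4 genes had each been called in the opposite direction on withdrawal, and both comparisons share the -bFGF arrays. MSI1 changed by 0.24 on replacement (adjusted p = 0.0698) and stayed lower in +bFGF than in RAW cells (log2 change -0.49, adjusted p = 0.00366), where 1.85% of all genes fell. The CELF2 call on replacement was lost without replicate 1 or 3 of either the -bFGF or the +bFGF group (adjusted p up to 0.101). With no filter on dim probe sets it was lost too (adjusted p = 0.0626), while the other 3 calls held in both checks. Of the other tested probe sets, 1 of 1 shared the replacement call in LIN28A, 2 of 3 in ELAVL2 and 0 of 2 in RBM38. CELF2 had no other tested probe set.

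**Figure D4:**
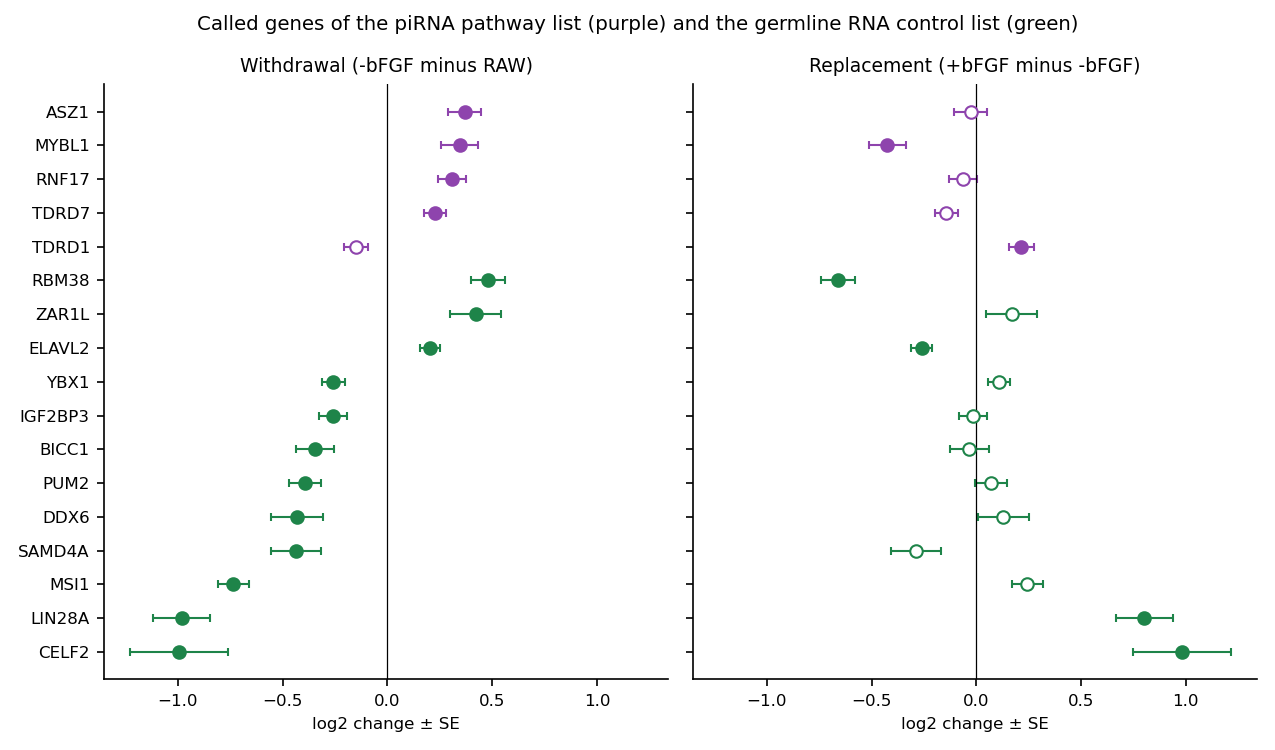
Log2 change ± SE of the genes called on withdrawal or replacement in the piRNA pathway list (purple, 5 genes) and the germline RNA control list (green, 12 genes). Filled points passed an adjusted p of 0.05 in that comparison. LIN28A and CELF2 lie near -1 on withdrawal, at -0.98 and -0.99, and at 0.80 and 0.98 on replacement. CELF2 averaged 62.0 in -bFGF cells, under every array median, and passed the filter on dim probe sets through the other groups.

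The probe sets whose log2 intensity most resembled the called members over the 9 arrays were named as a description, since all points share arrays and scaling. For DAZL they were EIF4G2, a translation initiation factor (Pearson r = 0.973), ADSS2, an enzyme of purine synthesis (r = 0.970), and KBTBD2, a ubiquitin ligase adaptor (r = 0.955). EIF4G2 fell by 0.24 on the log2 scale on withdrawal (adjusted p = 0.0274), while ADSS2 and KBTBD2 were not called, at -0.15 and -0.23. For CPEB1 probe set 1 they were MYC, the growth-related transcription factor (r = 0.991), CYB5R1, a reductase (r = 0.982), and SMCO4, a small membrane protein (r = 0.980). MYC rose by 1.05 on withdrawal (adjusted p = 0.00371 in limma) and fell by 0.90 on replacement (adjusted p = 0.0125). As these genes were picked for their resemblance to a called member, changes in the same direction follow from the choice.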

How the data were processed

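Per the labels, total RNA of cultured PGCs was hybridised to Affymetrix arrays. The authors deposited 1 linear intensity per probe set and array, made with MAS5 according to the submitters' processing notes. The version is not given in the sources used here. Each array's mean, trimmed by 2% at both ends, was 500.1. The authors compared groups in dChip from probe-level data, not used here. Of 38535 probe sets, 96 controls were left out. Symbols came from the platform annotation: 27178 probe sets carry 1, 177 several and 11180 none. No coordinates are given.

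Intensities were converted to log2 without offset. In R 4.3.3, limma 3.58.1 fitted 1 mean per group over 9 arrays with an intensity trend, two-sided. Probe sets at or above the median of mean log2 were tested (19220), with Benjamini-Hochberg adjustment within each comparison. Code was tested on simulated data. The methods' criteria used linear intensities, with errors from replicate arrays. Background is the 95th percentile of 744 foreign probe sets.

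Named genes are the 8 members on every single-symbol probe set, called genes of both lists with up to 6 per list and comparison given values, and the 3 nearest probe sets of each called member. Members, lists and tests were chosen with earlier results of these data known. No replicate block was used because the methods name none, and samples with the same replicate number did not deviate together. That does not exclude a pairing of the samples. Alternatives were other filters, scalings, an offset, variance models, a 1.2-fold null, an adjusted p of 0.1, averaged probe sets and each array left out. The 3 arrays per group limit the precision.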

Additional observations from a re-analysis of the deposited data

How the results depend on the processing

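Over 12 tested member probe sets, 3 comparisons and their alternatives, 647 log2 changes kept direction and call, 13 kept direction and lost the call, and 24 turned direction, all of values that were not called. DAZL on withdrawal (log2 change -0.27) lost its call with no filter (adjusted p = 0.0971), no intensity trend (0.126), a test against a 1.2-fold change and the methods' criteria (-0.26). The 1.2-fold test also ended both CPEB1 probe set 1 calls (0.40 and -0.32), and the criteria that on replacement (-0.32). Centring on the 75th percentile turned the replacement change of PIWIL1 probe set 2 to 0.0134 and TDRD9 probe set 2 to 0.0215, and the net change of PIWIL1 probe set 1 to 0.0036.

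The replicate numbers are shared between groups. Of 9 same-number pairs 0 correlated above 0.1 (-0.21 to 0.06), while pairs of unlike number ranged from -0.146 to 0.167. This showed no pairing but cannot exclude that same-numbered arrays share a culture, and the labels do not say. With the replicate block, members fallen on withdrawal were 0 (DAZL -0.27, adjusted p = 0.0616), piRNA genes risen on replacement 0 and germline RNA control genes risen on replacement 1, and no other count moved by over 1.5 times.

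Members fallen on withdrawal were 0 of 12 with no filter, no intensity trend, the 1.2-fold test and the criteria. With the 1.2-fold test, members risen on withdrawal and fallen on replacement were 0, and with the criteria members fallen on replacement were 0. For piRNA genes, risen on withdrawal were 2 with no trend, and 0 with the 1.2-fold test and the criteria. On replacement fallen were 0 with the 1.2-fold test, and risen were 0 with no filter, no trend, only the 2 groups compared, the 1.2-fold test and the criteria. For germline RNA control genes, fallen on withdrawal were 5 with the 75th percentile filter, 2 with the 1.2-fold test and 4 with the criteria, and risen were 1 with no trend, 0 with the 1.2-fold test and 1 with the criteria. On replacement fallen were 1 with the 1.2-fold test and with the criteria. Risen were 1 with no filter, the 75th percentile filter and the 1.2-fold test, 4 with 75th percentile centring and with an adjusted p under 0.1, and 5 with probe sets averaged. Stricter filters and the 1.2-fold test leave fewer genes or ask for more, and the cause of the other moves was not tested.

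Leaving out 1 array at a time gave 0 to 1 members fallen on withdrawal, 1 to 4 piRNA genes risen on withdrawal, 0 to 1 fallen and 0 to 0 risen on replacement, and 4 to 9 germline RNA control genes fallen and 1 to 4 risen on withdrawal, and 1 to 3 risen on replacement. DAZL on withdrawal ranged from -0.36 to -0.19. Uncalled changes that turned sign ranged as follows. On withdrawal CPEB1 probe set 3 ranged from -0.145 to 0.0532, DND1 from -0.0229 to 0.0619, MAEL from -0.0114 to 0.0928, TDRD9 probe set 1 from -0.0158 to 0.173, TDRD9 probe set 2 from -0.115 to 0.00744 and TDRKH from -0.143 to 0.0472. On replacement CPEB1 probe set 2 ranged from -0.0187 to 0.0640, PIWIL1 probe set 2 from -0.0652 to 0.0121 and TDRD9 probe set 2 from -0.0878 to 0.0780. For the net change PIWIL1 probe set 1 ranged from -0.0565 to 0.0286, TDRD9 probe set 1 from -0.0786 to 0.0528 and TDRD9 probe set 2 from -0.150 to 0.0132.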
